A study of Homo sapiens with 21 samples.

Results

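Transcripts of 9 genes of the NRF2 antioxidant pathway were measured in HepG2 cells, as the labels name them (a human liver cancer line), after exposure to coumarin, a benzopyrone made by plants. The genes were NFE2L2, KEAP1, NQO1, HMOX1, GCLM, GCLC, TXNRD1, SRXN1 and OSGIN1. They were picked by symbol from a table of 58735 genes, by a rule that uses no measured value but was made with earlier results of these data known, and all 9 passed the filter on low counts that left 16699 genes to test. The 6 treated groups received 0.001, 0.01, 0.1, 1, 10 or 100 µM coumarin for 24 h and the control group received 0 µM. Each group had 3 libraries, stated in the labels to be biological replicates, and 21 were made in all. Cells of every group, controls included, were moved out of serum-containing medium and kept in serum-free DMEM during the exposure, and RNA was selected on poly(dT) beads.

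NRF2, the protein product of NFE2L2, is a transcription factor that is made continuously and destroyed quickly. KEAP1 holds it to a ubiquitin ligase built on CUL3 and RBX1, and electrophiles or oxidants that modify KEAP1 let NRF2 build up, pair with a small MAF protein and bind antioxidant response elements near its target genes. Much of this control acts on protein, which was not measured here. In liver the pathway is known for inducing enzymes that make glutathione, reduce quinones and repair oxidised proteins.

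Gene counts totalled 26984563 to 43375429 per library. Counts were scaled with TMM factors (trimmed mean of M values) to counts per 1000000 counts (CPM), and replicates differed by 4.49% (edgeR common biological coefficient of variation). Control replicates 2 and 3 had the highest TMM factors, 1.04 and 1.043, against at most 1.018 in treated libraries. The library total behind the authors' FPKM exceeded the summed gene counts by 8.03% and 8.17% in those libraries and by at most 5.43% in treated ones. Results against 0 µM are therefore also given with control replicate 1 alone, which takes the spread from the treated groups. The defining markers of hepatocytes were absent: none of 12 reached a mean of 1 CPM, and ALB, which encodes serum albumin, had 0 counts in all 21 libraries. The 12 summed to at most 0.276 CPM per library. Of the 12, 5 had 0 counts in all 21 libraries. The liver origin that the label names was thus not seen in these markers. The identity of the line was not tested, so the results below hold for the cells sequenced and not for HepG2 as such. The epithelial keratins KRT8 and KRT18 averaged 1790 and 814 CPM at 100 µM, against 2410 and 1210 CPM at 0 µM, while KRT7, a keratin of ductal epithelia, averaged 756 CPM at 100 µM and 754 CPM at 0 µM. The 8 epithelial markers together summed to 3310 to 3400 CPM at 100 µM and 4180 to 4660 CPM at 0 µM, and 8 fibroblast markers to 1390 to 1430 CPM at 100 µM and 1600 to 1680 CPM at 0 µM. Of the 8 epithelial markers 3 reached a mean of 1 CPM, and KRT19, EPCAM, CDH1, KRT5 and KRT14 did not. Of the 8 fibroblast markers 5 reached it, and COL1A2, PDGFRA and THY1 did not. Among those 5, COL3A1 was at 949 CPM at 100 µM and 1160 CPM at 0 µM. VIM was at 325 CPM at 100 µM and 315 CPM at 0 µM, and COL1A1 at 114 CPM at 100 µM and 107 CPM at 0 µM. PDGFRB was at 20.1 CPM at 100 µM and 37.2 CPM at 0 µM, and FAP at 4.69 CPM at 100 µM and 12 CPM at 0 µM. The part of these differences in the results below was not tested. In bulk RNA, fewer cells of a type and less RNA per cell cannot be told apart. P-values set the difference between groups against the spread between these libraries.

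The promoters of 8 of the 9 genes, 11 sequences in all, were found in a RefSeq table of GRCh38.p14 that runs from 250 bases before to 50 bases after each start. HMOX1 was not among them. The core of the antioxidant response element, spelled TGACNNNGC and searched on both strands, was in 4 of these 11 promoters and in 13.3% of all 35116. Those 4 belong to GCLM, TXNRD1 (2 promoters) and KEAP1. They are printed because these genes share the letters while their transcripts moved in different ways at 100 µM, as given below. The first TXNRD1 promoter holds another match at positions -8 to 1 from its start, which is not printed. Capitals mark the core, read 5′ to 3′ on the strand of the gene, so that a match on the other strand appears as its reverse complement.
GCLM, chr1:93909446-93909475, minus strand: ctacgatttctGCTTAGTCAttgtcttcca
TXNRD1, first promoter, chr12:104215669-104215698, plus strand: tacacgggctaTGACTTCGCtgttgtcacc
TXNRD1, second promoter, chr12:104286919-104286948, plus strand: agtggatttctGCTTTGTCAttctgactct
KEAP1, first match, chr19:10502807-10502836, minus strand: gacttttattgTGACACGGCgggcgcccgg
KEAP1, second match, chr19:10502784-10502813, minus strand: cgcccggctctGCTTAGTCAtggtgacctg

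The 9-base core letters on the other strand were the same in GCLM, at positions -34 to -26 from the RefSeq start, and in the second KEAP1 match, at positions -31 to -23. A looser spelling, TGANNNNGC, was in 7 of the 11 promoters and in 41.8% of all promoters. These windows are short, no binding was measured, and a match is a description of letters only.

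All levels between genes are compared per length, in FPKM as deposited by the authors (fragments per kilobase of gene and 1000000 fragments). NQO1, a quinone reductase, had the highest mean over the 21 libraries, 200.3 ± 10.2 FPKM (SD), above 99% of the genes tested. TXNRD1, thioredoxin reductase 1, followed with 170.3 ± 8.29 FPKM. KEAP1 had 22.7 ± 1.02 FPKM and NFE2L2 had 17.99 ± 1.05 FPKM. GCLM and GCLC, which encode the modifier and the catalytic subunit of glutamate-cysteine ligase, had 9.92 ± 0.571 and 8.41 ± 0.241 FPKM. HMOX1, heme oxygenase 1, had 7.94 ± 0.558 FPKM and SRXN1, sulfiredoxin 1, had 6.23 ± 0.948 FPKM. OSGIN1, an oxidative stress induced growth inhibitor, was the lowest at 1.79 ± 0.183 FPKM, above 38.9% of genes tested. In this order GCLC and HMOX1 were the only neighbours whose means lay closer than the larger of their SDs, and NQO1 and TXNRD1 stood far above the other 7.

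**Figure D1:**
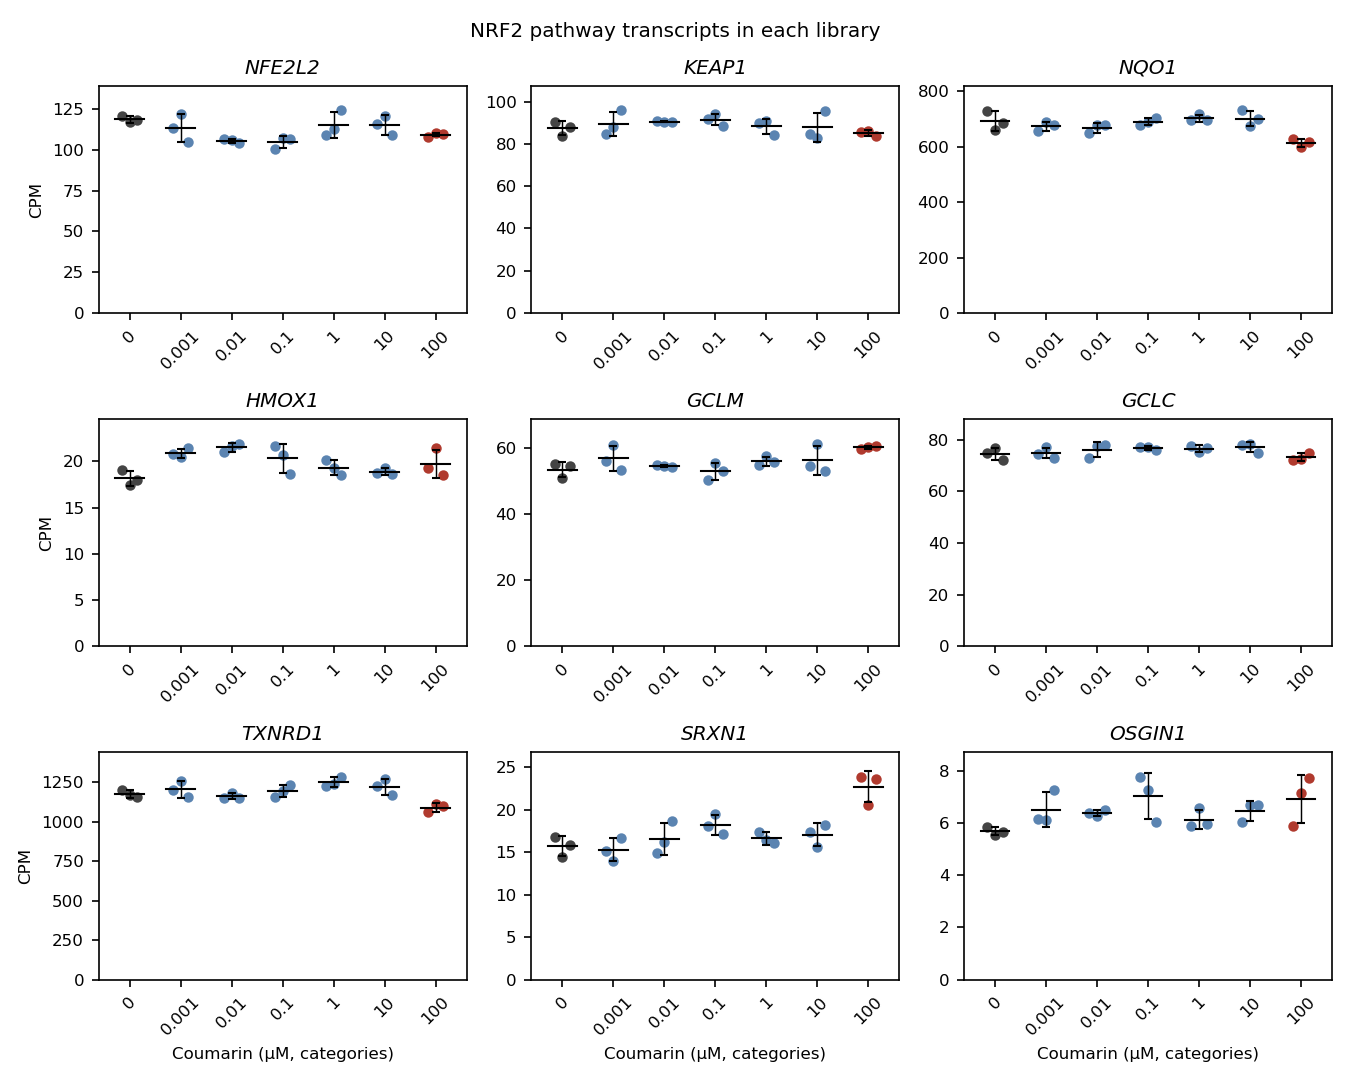
TMM-scaled CPM of each of the 9 genes (vertical axes from 0) in every library, by coumarin dose in µM as categories, with bars at the mean ± SD of 3 libraries. SRXN1 at 100 µM, 20.6 to 23.9 CPM, lies above all 18 other libraries, and NQO1 and TXNRD1 at 100 µM lie below all 18 others.

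At 100 µM, 5 of the 9 genes passed the test against 0 µM (edgeR quasi-likelihood F test, Benjamini-Hochberg adjusted p under 0.05). SRXN1, OSGIN1 and GCLM rose and NQO1 and TXNRD1 fell. Over all genes tested 27.3% passed, 14.4% higher and 12.9% lower. The 9 genes had a median log2 fold change of -0.02, and all genes tested had one of -0.01. The 3 libraries at 100 µM did not overlap the 3 at 0 µM for 6 of the 9 genes, against 40.8% of all genes tested. SRXN1 changed the most of the 9: 10.8% of genes tested had a larger change than SRXN1, and 44.9% had a larger one than NQO1. With upper-quartile scaling 41.4% of all called genes were higher, against 52.9% with TMM.

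SRXN1 (ENSG00000271303, GRCh38 chr20:646615-653370, minus strand) encodes sulfiredoxin, which reduces overoxidised peroxiredoxins. It had 23.9, 20.6 and 23.6 CPM at 100 µM, against 16.9, 14.5 and 15.8 CPM at 0 µM. Every library at 100 µM was above every library at 0 µM and above the other 15 treated libraries. The means were 22.7 ± 1.82 CPM at 100 µM and 15.7 ± 1.19 CPM at 0 µM (SD, n = 3 each), a 1.45-fold rise (log2 0.53 ± 0.080 SE, edgeR adjusted p = 2.06e-06). With control replicate 1 alone the log2 fold change was 0.43 (edgeR adjusted p = 0.00843). Across the doses from 0 to 100 µM the group means were 15.7, 15.3, 16.6, 18.2, 16.6, 17.1 and 22.7 CPM. The rise was thus at the highest dose, with the groups at 0.001 to 10 µM between 15.3 and 18.2 CPM. A readthrough gene on the same strand, AL121758.1, shares 2292 of the 2698 exonic bases of SRXN1. It had a mean of 2.0 counts per library, against 538.9 for SRXN1. How reads shared by both were assigned is not given in the sources used here. With the counts of both added, an alternative chosen after seeing the data, the log2 fold change was 0.53.

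NQO1 (ENSG00000181019, chr16:69706996-69726951, minus strand) encodes an enzyme that reduces quinones by 2 electrons and is among the most used indicators of NRF2 activity. It had 626.9, 598.0 and 616.3 CPM at 100 µM, against 730.6, 659.2 and 683.9 CPM at 0 µM. All 3 libraries at 100 µM were lower than every other library of the study. The means were 613.7 ± 14.6 CPM at 100 µM and 691.2 ± 36.2 CPM at 0 µM (SD, n = 3 each), a fall of 1.13-fold (log2 -0.17 ± 0.040 SE, edgeR adjusted p = 0.00107). With control replicate 1 alone it was -0.25 (edgeR adjusted p = 0.000526).

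TXNRD1 (ENSG00000198431, chr12:104215779-104350305, plus strand) encodes the cytosolic reductase that keeps thioredoxin reduced with NADPH. It had 1061, 1112 and 1100 CPM at 100 µM, against 1204, 1173 and 1158 CPM at 0 µM. The groups did not overlap, and the gap between them was about as wide as the spread within either. The means were 1091 ± 26.5 CPM at 100 µM and 1178 ± 23.7 CPM at 0 µM (SD, n = 3 each), a fall of 1.08-fold (log2 -0.11 ± 0.040 SE, edgeR adjusted p = 0.0348). The call was lost without a filter (edgeR adjusted p = 0.125), with control replicate 1 alone (0.0793), without control replicate 1 (0.0959) and without 100 µM replicate 1 (0.105).

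The glutamate-cysteine ligase subunits act together in the rate-limiting step of glutathione synthesis. GCLM (ENSG00000023909, chr1:93885205-93909456, minus strand) had 59.7, 60.6 and 60.7 CPM at 100 µM, against 55.2, 51.1 and 54.6 CPM at 0 µM. The 3 libraries at 100 µM were close to each other and above all 3 controls. GCLM rose 1.13-fold (log2 0.17 ± 0.052 SE, edgeR adjusted p = 0.0118). The call was lost with control replicate 1 alone (edgeR adjusted p = 0.284), without control replicate 2 (0.105) and without 100 µM replicate 3 (0.0527). GCLC (ENSG00000001084, chr6:53497341-53616970, minus strand) had 72.1, 72.6 and 75.0 CPM at 100 µM, against 74.9, 76.6 and 72.1 CPM at 0 µM, with overlapping groups. Its log2 fold change was -0.02, with a 95% interval of -0.11 to 0.06 (edgeR adjusted p = 0.708), so that a change of the size seen in GCLM lay outside the interval. The difference between the subunits was not tested.

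OSGIN1 (ENSG00000140961, chr16:83948282-83966332, plus strand) encodes a protein linked to growth arrest and cell death after oxidative stress. It was the lowest of the 9, with 163 to 296 counts per library. It had 5.89, 7.13 and 7.72 CPM at 100 µM, against 5.84, 5.55 and 5.64 CPM at 0 µM. The lowest library at 100 µM was barely above the highest control. The test passed narrowly (log2 0.29 ± 0.109 SE, edgeR adjusted p = 0.0422) and was lost in 8 of 10 other settings and in 5 of 6 fits with 1 of the compared libraries left out. With control replicate 1 alone its log2 fold change was 0.25 (edgeR adjusted p = 0.335). OSGIN1 shares 481 of 3460 exonic bases with AC009119.2, which had a mean of 1.6 counts. The promoter of OSGIN1 lacks TGACNNNGC but holds the looser TGANNNNGC. On the other strand the looser match TGAGTCAGC, at positions -99 to -91 from the start, overlaps the AP-1 match given next, at -97 to -91. The same letters thus fit both spellings. Its RefSeq promoter holds the AP-1 motif TGANTCA, shown because it is the only such match among the 11 promoters against 7.71% of all promoters: chr16:83953132-83953161, plus strand, cgggcccctgcTGACTCAcgcttatgaaag.

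**Figure D2:**
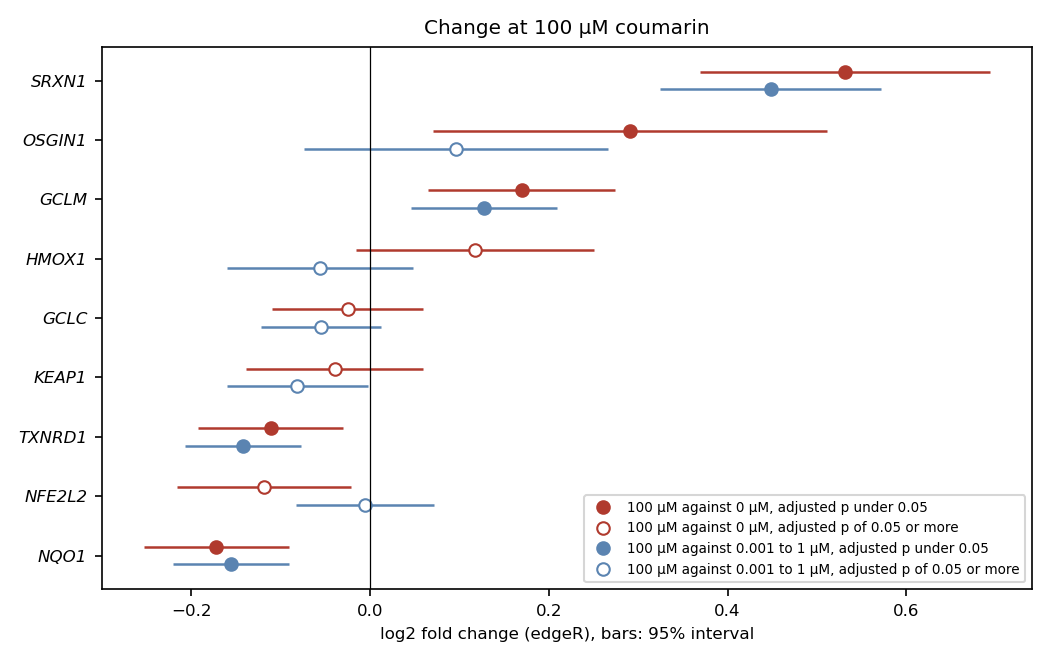
Log2 fold change of each gene at 100 µM against 0 µM (red) and against the 12 libraries at 0.001 to 1 µM (blue), with 95% intervals from the edgeR fit and filled points where the adjusted p was under 0.05. SRXN1 is farthest to the right in both comparisons, at 0.53 and 0.45, and NQO1 is farthest to the left, at -0.17 and -0.16.

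The other 4 genes did not pass at 100 µM against 0 µM. NFE2L2 (ENSG00000116044, chr2:177227595-177392697, minus strand), which encodes NRF2 itself, had 108.1, 110.2 and 109.7 CPM at 100 µM, against 120.9, 117.0 and 118.3 CPM at 0 µM. The groups did not overlap, but the log2 fold change of -0.12 ± 0.048 (SE) missed the threshold (edgeR adjusted p = 0.0625). It passed in 3 of 10 other settings: a filter of 1 CPM, a fit of the 2 groups and upper-quartile scaling. NFE2L2 shares 1054 of 5979 exonic bases with AC019080.1 on the same strand, which had a mean of 158.0 counts against 3434 for NFE2L2, and 54 with AGPS on the other strand, which had a mean of 3885.

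KEAP1 (ENSG00000079999, chr19:10486120-10503741, minus strand), the repressor that NRF2 itself can induce, had 85.4, 86.3 and 83.5 CPM at 100 µM, against 90.2, 83.9 and 88.1 CPM at 0 µM. The groups overlapped, and the log2 fold change was -0.04 with a 95% interval of -0.14 to 0.06 (edgeR adjusted p = 0.601). HMOX1 (ENSG00000100292, chr22:35380361-35394214, plus strand), which breaks down heme, had 19.3, 21.4 and 18.5 CPM at 100 µM, against 19.1, 17.4 and 17.97 CPM at 0 µM. The groups overlapped here too, with a log2 fold change of 0.12 and a 95% interval of -0.02 to 0.25 (edgeR adjusted p = 0.193). With control replicate 1 alone none of NFE2L2, KEAP1, GCLC and HMOX1 passed either (edgeR adjusted p from 0.176 to 0.823).

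The 12 libraries at 0.001 to 1 µM gave a comparison whose reference mean leaves out the controls. The controls still entered the shared fit of 21 libraries, and so its filter, scaling and spread. Both comparisons share the 100 µM libraries. Against the 12 low-dose libraries 4 of the 9 genes passed at 100 µM, against 33.1% of all genes tested (16.6% higher and 16.5% lower): SRXN1 and GCLM rose and NQO1 and TXNRD1 fell. The libraries did not overlap for 3 of the 9, against 21.3% of genes tested. SRXN1 ranged in the 12 libraries from 14.03 through a median of 16.6 to 19.5 CPM, all below 100 µM (log2 0.45 ± 0.061 SE, edgeR adjusted p = 1.83e-07). NQO1 ranged in them from 649 through a median of 684 to 716 CPM, all above 100 µM (log2 -0.16 ± 0.032 SE, edgeR adjusted p = 0.000162). Both genes thus stood clear of every low-dose library.

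TXNRD1 ranged from 1152 through a median of 1197 to 1286 CPM in the low-dose libraries, all above 100 µM (log2 -0.14 ± 0.032 SE, edgeR adjusted p = 0.000511). GCLM ranged from 50.5 through a median of 55.0 to 61.1 CPM, so that its groups overlapped (log2 0.13 ± 0.040 SE, edgeR adjusted p = 0.0124). The GCLM call was lost without 100 µM replicate 2 (edgeR adjusted p = 0.0522) or replicate 3 (0.0737). For TXNRD1 the call held in all 8 other settings and all 15 fits with a library left out.

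OSGIN1 did not pass against the low doses, with a log2 fold change of 0.10 and a 95% interval of -0.07 to 0.27 (edgeR adjusted p = 0.42). NFE2L2 had a log2 fold change of -0.01 and a 95% interval of -0.08 to 0.07 (edgeR adjusted p = 0.93), an interval that spans 0. KEAP1 had -0.08 (edgeR adjusted p = 0.109), GCLC had -0.05 (0.221) and HMOX1 had -0.06 (0.447).

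Ratios within a library do not depend on its scaling. They were chosen after the values were seen and carry no test. There were 34.5 to 38.3 SRXN1 reads per 1000 NQO1 reads at 100 µM, 20.4 to 28.3 in the 12 low-dose libraries and 22.0 to 23.2 at 0 µM. The 3 libraries at 100 µM stood apart from all others. This follows from the values above, where SRXN1 at 100 µM lay above and NQO1 below every other library, and adds nothing to them. GCLM reads per 1000 GCLC reads were 809 to 834 at 100 µM, 654 to 794 at 0.001 to 1 µM and 667 to 757 at 0 µM. NQO1 reads per 1000 TXNRD1 reads overlapped, at 538 to 591 at 100 µM, 540 to 589 at 0.001 to 1 µM and 562 to 607 at 0 µM. The SRXN1 and GCLM ratios were thus highest at 100 µM without overlap, and the ratio of the abundant reductases overlapped across groups. The GCLM ratio likewise only recombines values given above, where GCLM alone overlapped the low-dose libraries. The share of other gene pairs that would separate in this way was not taken.

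**Figure D3:**
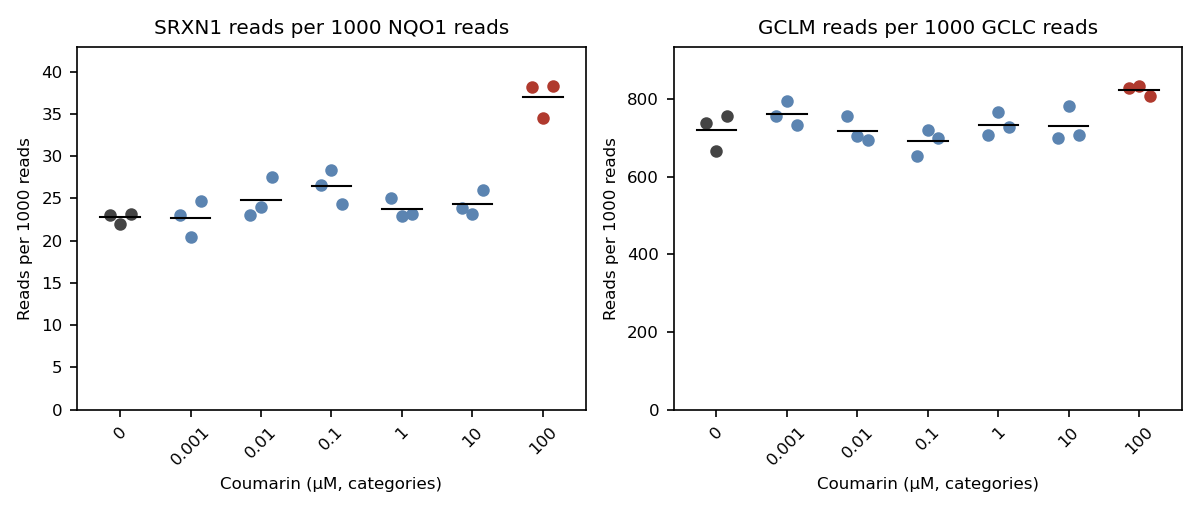
SRXN1 reads per 1000 NQO1 reads (left) and GCLM reads per 1000 GCLC reads (right) in each library, by coumarin dose in µM as categories, with the group mean as a line. At 100 µM both ratios lie above every other library, at 34.5 to 38.3 and 809 to 834. Both pairs were chosen after the values were seen.

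At 10 µM none of the 9 genes passed against 0 µM (edgeR), against 2.62% of all genes tested. None had an unadjusted p under 0.05 either, and DESeq2 and limma on log2 FPKM also called 0 of 9. At 1 µM 0 of 9 passed with edgeR, DESeq2 or limma, against 2.01% of genes tested with edgeR. TXNRD1 alone had an unadjusted p under 0.05 there, with 1228, 1243 and 1286 CPM at 1 µM against 1204, 1173 and 1158 CPM at 0 µM (log2 0.09, edgeR adjusted p = 0.293). At 0.001 µM 0 of 9 passed with edgeR, DESeq2 or limma, against 1.53%, and HMOX1 alone had an unadjusted p under 0.05.

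The lower doses with calls were 0.01 and 0.1 µM. At 0.01 µM 2 of 9 passed, HMOX1 higher and NFE2L2 lower, against 5.86% of genes tested (4.77% higher and 1.09% lower). At 0.1 µM 1 of 9 passed, NFE2L2 lower, against 6.45% (1.43% lower). HMOX1 had 21.0, 21.6 and 21.9 CPM at 0.01 µM, against 19.1, 17.4 and 17.97 CPM at 0 µM. It rose 1.18-fold at 0.01 µM without overlap (log2 0.24 ± 0.065 SE, edgeR adjusted p = 0.0174). The call was lost with control replicate 1 alone (edgeR adjusted p = 0.439) and without control replicate 2 (0.0967), control replicate 3 (0.0817), 0.01 µM replicate 2 (0.0779) or 0.01 µM replicate 3 (0.0765). At 0.001 and 0.1 µM HMOX1 had log2 fold changes of 0.20 (edgeR adjusted p = 0.122) and 0.16 (0.146).

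NFE2L2 had 106.5, 106.3 and 104.3 CPM at 0.01 µM, against 120.9, 117.0 and 118.3 CPM at 0 µM (log2 -0.17 ± 0.048 SE, edgeR adjusted p = 0.0286). At 0.1 µM it had 100.7, 107.2 and 106.8 CPM (log2 -0.18 ± 0.048 SE, edgeR adjusted p = 0.0191). Both groups lay wholly below the controls. The call at 0.01 µM was lost in all 6 fits that left out a compared library (edgeR adjusted p from 0.051 to 0.114) with control replicate 1 alone (0.185), and with limma on log2 FPKM (limma adjusted p = 0.087 and 0.0859). The call at 0.1 µM was lost without 0.1 µM replicate 1 (edgeR adjusted p = 0.114), without control replicate 1 (0.0503) or replicate 3 (0.0695), with control replicate 1 alone (0.15), and with limma (limma adjusted p = 0.0623 and 0.0606). At 0.1 µM SRXN1 had a log2 fold change of 0.22 (edgeR adjusted p = 0.115) and OSGIN1 one of 0.31 (0.0885), neither of which passed.

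OSGIN1 was higher in all 18 treated libraries than in any of the 3 controls, which 1.04% of genes tested also were. HMOX1 was higher than all controls in 13 of 18 treated libraries, and NFE2L2 was lower than all controls in 15 of 18. For HMOX1 and NFE2L2 the share of all genes tested with such counts was not taken, so these counts cannot be read as particular to them. These counts rest on the same 3 controls, of which replicates 2 and 3 had the highest TMM factors, and the part of that in them was not tested.

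The test of all 7 groups passed for NFE2L2, NQO1, HMOX1, TXNRD1 and SRXN1, 5 of 9, against 30% of genes tested. For SRXN1 its edgeR adjusted p was 3.5e-06 and for TXNRD1 it was 0.0046. For NFE2L2 it was 0.0162 (0.0790 and 0.0812 with limma on log2 FPKM) and for HMOX1 0.0322. The HMOX1 call was lost with no filter (edgeR adjusted p = 0.0501) and in 5 of 21 fits with a library left out: without control replicate 2 (0.0795) or 3 (0.0796), 0.001 µM replicate 1 (0.0518), or 0.01 µM replicate 2 (0.0782) or 3 (0.0767). The slope on log10 dose over the 18 treated libraries passed for 2 of 9, against 21.5% of 16522 genes (10% upward and 11.5% downward). SRXN1 rose by 0.08 log2 units per 10-fold dose (edgeR adjusted p = 0.00341). Without the 100 µM group its slope was 0.03 (edgeR adjusted p = 0.435). HMOX1 fell by 0.03 log2 units per 10-fold dose (edgeR adjusted p = 0.0451), a call that held in 2 of 18 fits with a library left out. For SRXN1 the slope therefore rested on the 100 µM group, and HMOX1 was highest at 0.01 µM, at 21.5 ± 0.485 CPM (SD, n = 3).

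The other genes of the pathway were taken from 7 lists of its parts, 111 genes of which 102 were tested. At 100 µM against 0 µM, 31 of the 102 rose and 19 fell, against 14.4% higher and 12.9% lower over all genes tested, and the median log2 fold change was 0.05 in the lists and -0.01 over all genes. Against the 12 low-dose libraries 28 rose and 28 fell, against 16.6% higher and 16.5% lower over all genes, with a median of 0.02 in the lists. The counts of single lists below stand against the same shares. The shares over all genes were not matched for expression level, so the higher share called in the lists was not tested as a property of the pathway. Within each list up to 3 genes with the smallest p are named, and the summed markers of epithelial cells and fibroblasts given above were also lower at 100 µM than at 0 µM.

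Of the partners and repressors of NRF2 3 of 6 tested genes rose and 1 fell. NFE2L1, an NRF2 relative that controls proteasome genes, had 272.0 ± 2.21 CPM at 100 µM and 227.2 ± 3.72 CPM at 0 µM (SD, n = 3 each; log2 0.26, edgeR adjusted p = 1.86e-06). MAFG, a small MAF partner, rose by 0.21 on the log2 scale (edgeR adjusted p = 0.000495). MAFF, another small MAF, fell to 10.96 ± 1.54 CPM at 100 µM, against 14.9 ± 0.404 CPM at 0 µM (log2 -0.45, edgeR adjusted p = 0.000308). The remaining small MAF gene, MAFK, named here after its values were seen, rose by 0.16 (edgeR adjusted p = 0.02), so that 2 of the 3 small MAF genes rose and 1 fell. Against the low doses NFE2L1 was at 0.13 (edgeR adjusted p = 0.000523), and MAFG, MAFK and MAFF kept their direction and call.

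In NRF2 protein turnover 6 of 13 genes rose and none fell at 100 µM against 0 µM (edgeR), with a median log2 fold change of 0.13. Against the low doses 4 rose and 1 fell, with a median of 0.06. SQSTM1, an autophagy receptor that draws KEAP1 away from NRF2, had 543.5 ± 12.1 CPM at 100 µM and 468.1 ± 17.2 CPM at 0 µM (SD, n = 3 each; log2 0.22, edgeR adjusted p = 5.93e-05). The ligase genes RBX1 and CUL3 rose by 0.25 (edgeR adjusted p = 0.000849) and 0.17 (0.00487) on the log2 scale. Against the low doses RBX1 was at 0.13 (edgeR adjusted p = 0.0187) and CUL3 at 0.11 (0.0132). SQSTM1 and the ligase act on NRF2 in opposite ways. The number called in this list against 0 µM was 3 with control replicate 1 alone. The number called against the low doses was 1 without 100 µM replicate 1 and 2 without 100 µM replicate 3.

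Among 26 genes of glutathione supply and use 9 rose and 5 fell at 100 µM against 0 µM. Against the low doses 7 rose and 7 fell. CHAC1, which breaks glutathione down, had 19.3 ± 0.447 CPM at 100 µM and 2.40 ± 0.557 CPM at 0 µM (SD, n = 3 each), an 8.02-fold rise (log2 3.00, edgeR adjusted p = 9.32e-22). SLC3A2, a subunit of the transporter that brings in cystine, had 777.1 ± 3.38 CPM at 100 µM and 520.4 ± 18.2 CPM at 0 µM (log2 0.58, edgeR adjusted p = 2.83e-14). ABCC3, an exporter of conjugates, fell to 31.3 ± 0.965 CPM at 100 µM, against 50.6 ± 1.05 CPM at 0 µM (log2 -0.69, edgeR adjusted p = 1.03e-14). CHAC1 and SLC3A2 are also known targets of the amino acid response factor ATF4. Which regulator moved a gene was not tested for any gene named, in this list or in the others. The number called in this list was 9 with control replicate 1 alone.

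Of 20 genes of the thioredoxin and peroxiredoxin systems and of direct oxidant removal 4 rose and 1 fell. SESN2, a sestrin induced by stress, had 31.8 ± 1.14 CPM at 100 µM and 13.4 ± 0.523 CPM at 0 µM (SD, n = 3 each; 2.38-fold, edgeR adjusted p = 3.74e-17). CAT, catalase, rose by 0.34 (edgeR adjusted p = 4.85e-08) and PRDX6, a peroxiredoxin, by 0.19 (0.000702) on the log2 scale. PRDX6 did not pass against the low doses (log2 0.06, edgeR adjusted p = 0.17). The number called in this list was 9 without control replicate 1, and against the low doses 4 rose and 5 fell. Of 11 genes of NADPH supply 4 rose and 2 fell. MTHFD2, a mitochondrial folate enzyme, had 280.8 ± 2.49 CPM at 100 µM and 194.6 ± 10.1 CPM at 0 µM (log2 0.53, edgeR adjusted p = 3.22e-13), and the NADPH-forming enzymes IDH1 and PGD rose by 0.21 (4.36e-05) and 0.19 (0.000983). PGD did not pass against the low doses (log2 0.04, edgeR adjusted p = 0.428), where 3 genes of this list rose and 4 fell.

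Of 11 genes of iron and heme handling 1 rose and 4 fell. TFRC, the transferrin receptor, fell to 507.4 ± 0.206 CPM at 100 µM, against 707.2 ± 15.2 CPM at 0 µM (SD, n = 3 each; log2 -0.48, edgeR adjusted p = 1.23e-12). FBXL5, an iron-sensing ligase subunit, and SLC11A2, an iron transporter, fell by 0.28 (edgeR adjusted p = 2.54e-05) and 0.21 (7.67e-05) on the log2 scale. Against the low doses they were at -0.18 (edgeR adjusted p = 0.000229) and -0.14 (0.000845). The number called in this list was 3 with control replicate 1 alone.

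Of 15 genes that detoxify quinones and aldehydes, the group to which NQO1 belongs by function, 4 rose and 6 fell. ALDH3A1, an aldehyde dehydrogenase, had 14.4 ± 0.624 CPM at 100 µM and 46.8 ± 4.26 CPM at 0 µM (SD, n = 3 each), a fall of 3.24-fold (log2 -1.70, edgeR adjusted p = 9.55e-24). The aldo-keto reductases AKR1C1 and AKR1C3, known in human cells as NRF2 targets, fell by 0.86 (edgeR adjusted p = 1.78e-20) and 0.64 (2.06e-15) on the log2 scale. AKR1C genes are near-identical copies, so how their reads were divided is uncertain. The number called was 6 with control replicate 1 alone, without control replicate 3 or without 100 µM replicate 3.

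**Figure D4:**
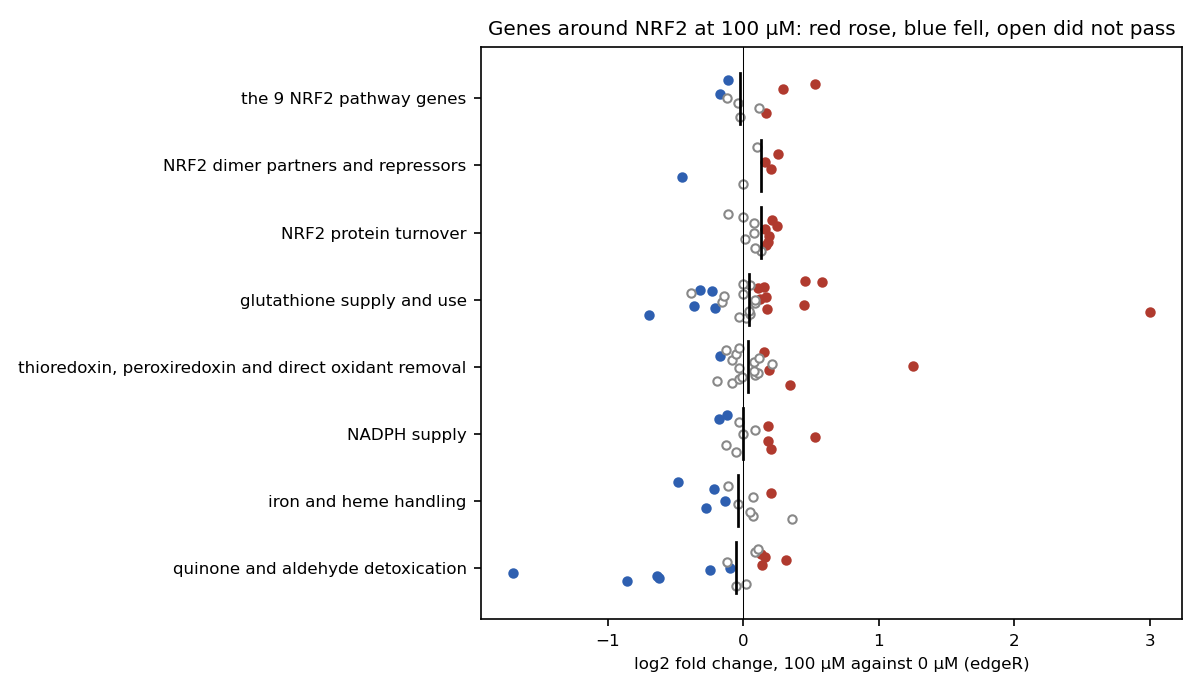
Log2 fold change at 100 µM against 0 µM (edgeR) of the 9 genes (top row) and of the tested genes in 7 lists of the pathway, with red points for genes that rose, blue for genes that fell, open points for the rest and a black tick at each list's median. The medians lie between -0.05 and 0.13, with CHAC1 at 3.00 and ALDH3A1 at -1.70 as the outermost points.

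For each gene called at 100 µM the 3 protein-coding genes with the most alike pattern were found among 10040 genes with a mean of at least 5 CPM, as the smallest root mean square difference in centred log2 CPM over the 7 group means. For SRXN1 they were SURF2 at a difference of 0.0368, TOR3A at 0.0443 and CCDC86 at 0.047. For NQO1 they were GNAI1, COQ5 and CCDC25, at 0.0108 to 0.015, and for TXNRD1 they were TMEM52B, FXR1 and MAT2B, at 0.0125 to 0.0154. For GCLM they were RRM2, TMED8 and ATF6, at 0.0121 to 0.0135, and for OSGIN1 they were C20orf27, C19orf25 and RNF40, at 0.0259 to 0.0282. None of these neighbours is another of the 9 genes. With only 3 of 10040 candidates kept for each gene, this does not show whether the 9 genes moved together.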

How the data were processed

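The authors deposited raw counts per gene, whole numbers for 21 libraries, and a table of FPKM, scaled by the authors for gene length and library total. HISAT2, DESeq2 and GRCh38 stand in the submitters' processing notes. How reads were counted, with or without strand, and which total lies behind FPKM is not given in the sources used here. Gene coordinates are those of the count table and matched GENCODE release 29 for all 9 genes. The 9 genes and all lists were chosen with earlier results of these data known.

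The main test was the robust quasi-likelihood F test of edgeR 4.0.16 (R 4.3.3) after filterByExpr and TMM scaling. All 21 libraries entered 1 fit, which left 14 residual degrees of freedom. Contrasts set each dose against 0 µM and 100 µM against the mean of the 4 groups at 0.001 to 1 µM. A joint test of 7 groups and a slope on log10 dose (18 treated libraries) were added. Benjamini-Hochberg adjustment ran over all genes tested, the threshold was 0.05, and tests other than the joint one were two-sided. CPM used TMM-scaled library sizes. From each list up to 3 genes with a mean of at least 1 CPM and the smallest p at 100 µM are named. Replicate pairs differed beyond sampling noise (chi-square per degree of freedom 2.27 to 8.34).

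Alternatives were other scalings (RLE, upper quartile), other filters (none, or 1 CPM in 3 libraries), fitting the compared groups alone, a replicate block, limma 3.58.1 on log2 of FPKM plus 1 or 0.1, DESeq2 1.42.0, control replicate 1 alone, and leaving out each library. Totals were 26984563 to 43375429 counts per library, and the test takes its error from the spread between libraries. In simulated data for 100 µM against 0 µM over 16472 genes, the test recovered 70% of genes changed 1.25-fold and 84% of those changed 1.5-fold, 50 of each, with 14 false calls. Only genes with a mean of at least 1 CPM were changed, and no fold below 1.25 was tried. Recovery of smaller changes, such as the 1.13-fold fall of NQO1, was therefore not measured. Apart from scaled size and the changed genes, simulated libraries differed by random spread only. Nothing else set control replicates 2 and 3 apart there, so recovery and false calls in the real data may differ.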

Additional observations from a re-analysis of the deposited data

How the results depend on the processing

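SRXN1 and NQO1 at 100 µM kept their direction and call against 0 µM and against 0.001 to 1 µM under every alternative and with each library left out, with log2 fold changes against 0 µM of 0.43 to 0.59 for SRXN1 and -0.25 to -0.13 for NQO1. Of the 9 genes 3 were called against 0 µM with no filter and 2 with control replicate 1 alone, against 5, and 3 to 4 with a library left out (3 without control replicate 1, control replicate 2 or 100 µM replicate 3). Calls at 0.001 to 1 µM numbered 1 with limma on FPKM plus 1 or plus 0.1 and 0 with control replicate 1 alone, against 3, and 0 to 4 with a library left out. They numbered 0 without control replicate 3, and 1 without control replicate 1, control replicate 2, 0.01 µM replicate 2 or 0.01 µM replicate 3. The slope called 1 gene with RLE scaling, no filter or the replicate block, 0 without the 100 µM group and 1 to 2 with a library left out, against 2. The lists for turnover, glutathione, iron and quinones held 3, 9, 3 and 6 calls with control replicate 1 alone, against 6, 14, 5 and 10. With a library left out, turnover held 4 to 6, thioredoxin 4 to 9 and quinones 6 to 11. Against the low doses turnover held 3 calls with both limma fits and 1 to 6 with a library left out, against 5. Log2 fold changes against the low doses reversed for NFE2L2 with no filter (0.0043), without 0.001 µM replicate 2 (0.0084) and without 1 µM replicate 3 (0.0089), and for OSGIN1 without 100 µM replicate 3 (-0.0015). With each library left out they ranged from -0.019 to 0.0089 for NFE2L2 and from -0.0015 to 0.191 for OSGIN1. The cause was not tested for any of these.

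The labels number the replicates 1 to 3 in each group and do not say that a number marks a shared culture or day. Deviations of same-numbered libraries, each treated group with 0 µM, correlated at -0.132 to 0.0703, against -0.0754 to 0.12 for other numbers, so the numbers were not taken to pair the libraries, although all 6 libraries at 100 µM and 0 µM correlated best with their own number in the other group. With the replicate block 4 genes were called at 100 µM against 0 µM, against 5: OSGIN1 was lost (edgeR adjusted p = 0.0512), as was the HMOX1 slope (0.0518).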

Other observations

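Genes of the 7 lists, 102 tested in all, also passed at each lower dose against 0 µM (edgeR adjusted p under 0.05). At 0.001 µM 3 rose and 1 fell, against 1.53% of all genes called. At 0.01 µM 6 rose and 3 fell, against 5.86%, and at 0.1 µM 9 rose and 2 fell, against 6.45%. At 1 µM 2 rose and 2 fell, against 2.01%, and at 10 µM 1 rose and 4 fell, against 2.62%. These comparisons share the 3 controls, and the shares over all genes were not matched for expression level.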
